A study of Mus musculus with 6 samples.

Results

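The 10 genes described here handle long chain fatty acids inside the adipocyte: 3 fatty acid binding proteins (Fabp3, Fabp4 and Fabp5), 2 fatty acid transport proteins (Slc27a1 and Slc27a4), 4 long chain acyl-CoA synthetases (Acsl1, Acsl3, Acsl4 and Acsl5) and the acyl-CoA binding protein Dbi. They were chosen by gene name, with no measured value in the rule, and are 10 of the 35122 genes in the deposited count table. RNA came from the adipocytes that floated after collagenase digestion of epididymal fat from male C57BL/6 mice on chow, with 1 library per mouse and 3 mice per group. Control mice were PU.1 fl/fl, in which loxP sites flank a single exon of Spi1, the gene of the ETS transcription factor PU.1. The aPU.1KO mice were AdipoqCre_PU.1 fl/fl, so they carried the same floxed alleles together with Cre driven by the adiponectin promoter, which is active in adipocytes. All mice were 10 to 11 months old by their labels, and the study describes the controls as littermates. The mice are numbered 1 to 3 within each group in the order of their labels.

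Fatty acids that reach an adipocyte, from lipoproteins cleaved at the vessel wall or from triglyceride broken down in the cell, are nearly insoluble in water and are carried by small binding proteins in the cytosol. Transport proteins of the SLC27 family help fatty acids enter cells and also have acyl-CoA synthetase activity. The ACSL enzymes join the fatty acid to coenzyme A, which traps it in the cell and prepares it for storage in triglyceride, for membrane lipid or for oxidation, and Dbi binds the acyl-CoA that is formed.

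Of the 10 genes, 4 did not overlap between the groups, against 32.1% of all genes tested, and the mean differences of these 4 were under 1.5-fold. In Fabp4, Slc27a1 and Dbi each aPU.1KO mouse lay above all 3 controls, with fold changes of 1.35, 1.42 and 1.24, and in Acsl4 each lay below them, at 0.856 of control. The summed adipocyte markers were also higher in the aPU.1KO mice, by 0.30 on the log2 scale and without overlap. Relative to that sum Slc27a1 still did not overlap, while Fabp4 and Dbi did. For Acsl4, lower without overlap in CPM, a lower value relative to the higher sum was fixed in advance. The counts of the other 6 genes overlapped between the groups. No member passed an adjusted p of 0.05 in edgeR's quasi-likelihood test (0 of 10, against 0.237% of the 13925 genes tested, 0.0575% in the higher direction and 0.18% in the lower one). The background count rested on single mice: edgeR called 8.34% of genes when control mouse 2 was left out, none when control mouse 1 was, and 0.0357% to 0.0559% for each other mouse. At an unadjusted p under 0.05, 3 members were higher and 1 was lower (against 11.9% and 13.7% of all genes tested), and DESeq2 called 3 higher and 0 lower at an adjusted p under 0.05 (against 3.69% and 7.78% of the 16280 genes it tested). A share of 3 in 10 higher without overlap stands beside 16.7% of all genes tested, and 1 in 10 lower beside 15.5%. The median log2 fold change of the 10 genes was 0.18, and that of all genes tested was 0.014.

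**Figure D1:**
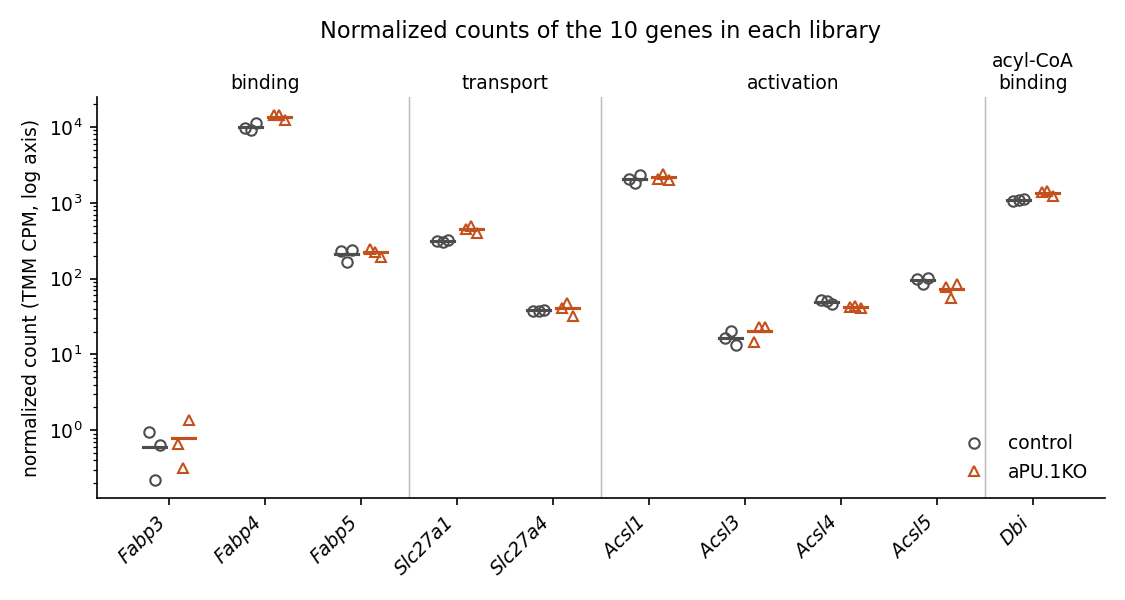
Normalized counts (CPM scaled by TMM, log axis) of the 10 genes, with circles for the 3 control libraries, triangles for the 3 aPU.1KO libraries and a line at each group's mean; vertical lines part the roles. Counts do not take gene length into account. Fabp4 lies highest at 9109 to 14439 CPM and Fabp3 lowest at 0.219 to 1.37 CPM.

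The libraries held between 20550252 and 69283842 counts, and control library 1 was the deepest. Spi1, counted over all its exons whether or not the floxed one is present, was at 6.35 to 26.7 CPM in the control mice and at 1.22 to 4.17 CPM in the aPU.1KO mice. The adipocyte markers were present in every library: the summed level of 8 genes that includes Adipoq, Plin1 and Cidec was 15697 to 17649 CPM in the controls and 18714 to 22712 CPM in the aPU.1KO mice, where at an unadjusted p under 0.05 6 of the 8 were higher and 1 was lower. Over all genes tested, 11.9% were higher and 13.7% lower at that threshold. Other cell types were represented as well. Of 15 macrophage markers, all of them tested, 12 had lower counts (unadjusted p under 0.05), and their sum was 505 to 1603 CPM in the controls (lowest in control mouse 2) and 271 to 355 CPM in the aPU.1KO mice. Of 9 progenitor markers 6 were lower, with sums of 1343 to 1802 CPM and 732 to 1053 CPM. Of 10 endothelial markers 2 were lower, close to the share of all genes, with sums of 625 to 896 CPM and 380 to 818 CPM that overlap. Of 9 hepatocyte markers 8 passed the filter on low counts, some of them (such as Fabp1 and Apoa1) only through the control libraries, so no count of their tests is given, and the sums were 41.6 to 64.4 CPM and 17.9 to 24.5 CPM. The sums of mesothelial markers (4.96 to 21.1 and 7.48 to 9.94 CPM), of T, NK and B cell markers (4.11 to 6.86 and 2.08 to 3.60 CPM), of brown or beige adipocyte markers (19.0 to 25.7 and 21.1 to 25.9 CPM) and of muscle markers (39.8 to 52.7 and 37.7 to 132 CPM, highest in aPU.1KO mouse 1) overlapped between the groups except for T, NK and B cells, and 5 of 7 markers of epididymis and testis epithelium were at 0 in all libraries. In bulk RNA fewer cells of a type cannot be told apart from less RNA per cell, and the part of these marker differences in the results that follow was not tested.

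**Figure D2:**
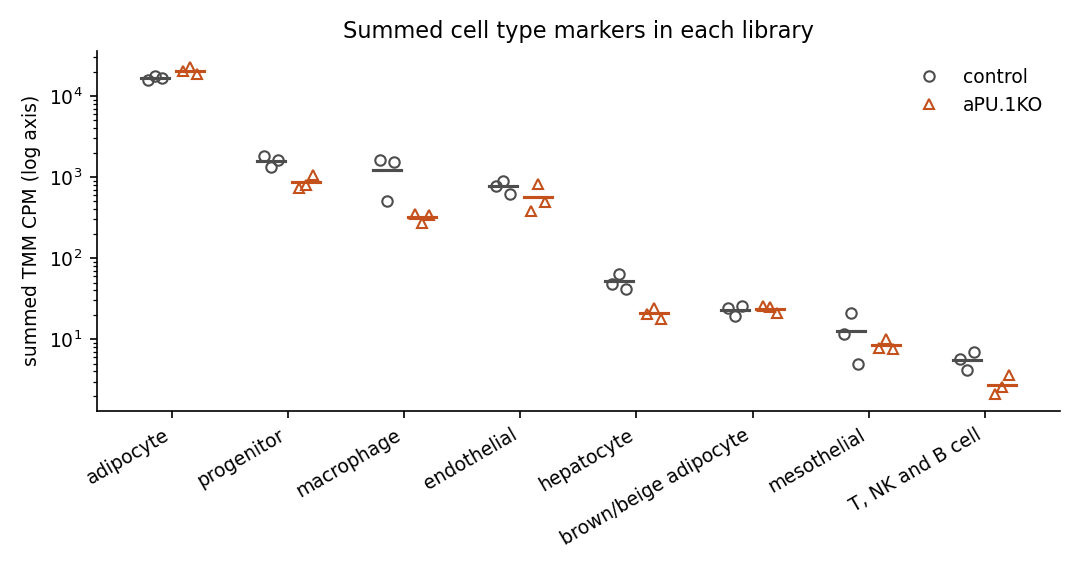
Summed normalized counts (TMM CPM, log axis) of the markers of 8 cell types in each library, with circles for control, triangles for aPU.1KO and a line at each group's mean. The aPU.1KO libraries lie above the controls for adipocyte markers (18714 to 22712 against 15697 to 17649 CPM) and below them for macrophage markers (271 to 355 against 505 to 1603 CPM).

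Of the binding proteins, Fabp4 (ENSMUSG00000062515; chromosome 3, 10204088 to 10208576, minus strand, GRCm38) is the form typical of adipocytes, also known as aP2, and it is expressed in macrophages and endothelial cells too. Its normalized counts were 9807, 9109 and 11377 CPM in control mice 1, 2 and 3 and 14439, 14290 and 12288 CPM in aPU.1KO mice 1, 2 and 3. All 3 aPU.1KO mice lay above all 3 controls, although the gap between control mouse 3 and aPU.1KO mouse 3 was small beside the spread within either group. By edgeR's quasi-likelihood test its log2 fold change was 0.44 (standard error 0.18), at an adjusted p of 0.190 (unadjusted 0.0476), and DESeq2 gave an adjusted p of 0.0175. Leaving out single mice gave Fabp4 log2 fold changes between 0.36 and 0.53, and the edgeR adjusted p ran from 0.168 to 0.533.

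Fabp5 (ENSMUSG00000027533; chromosome 3, 10012548 to 10016607, plus strand), the epidermal form, lies on the same chromosome as Fabp4 and is also found in macrophages. Its counts were 231, 167 and 241 CPM in the control mice and 248, 225 and 195 CPM in the aPU.1KO mice. The groups overlapped, with control mouse 2 the lowest of the 6. On the log2 scale Fabp5 differed by 0.06 (95% interval -0.32 to 0.45, edgeR adjusted p = 0.829), and it was -0.09 when control mouse 2 was left out and -0.03 for aPU.1KO mouse 1. Fabp5 has 3 processed pseudogenes with at least 95% identity over part of its transcripts, and the pseudogenes together held 7 counts where Fabp5 held 40640.

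Fabp3 (ENSMUSG00000028773; chromosome 4, 130308595 to 130315463, plus strand), the heart and muscle form, was near the limit of detection. It was counted 68, 5 and 16 times in the control libraries and 13, 7 and 29 times in the aPU.1KO libraries, or 0.936, 0.219 and 0.635 CPM and 0.661, 0.316 and 1.37 CPM. At this depth no difference was detectable: the 95% interval of its log2 fold change of 0.31 ran from -1.26 to 1.88 (edgeR adjusted p = 0.796). Its direction turned without control mouse 2 (-0.04) or aPU.1KO mouse 3 (-0.37). Exons of Fabp3 also overlap those of Zcchc17 on the other strand over 81 bp, and Zcchc17 held 7334 counts against 138 for Fabp3.

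Set against each other within a library, Fabp4 outnumbered Fabp5 by 42.5, 54.6 and 47.1 counts to 1 in control mice 1 to 3 and by 58.2, 63.4 and 63.0 counts to 1 in aPU.1KO mice 1 to 3. Every aPU.1KO library thus had less Fabp5 per Fabp4 than every control library. The mean log2 ratio of Fabp5 to Fabp4 was -5.58 ± 0.18 (SD, n = 3) in the controls and -5.94 ± 0.068 in the aPU.1KO mice, a difference of -0.36. The exact two-sided permutation test gave p = 0.1, which is the smallest value that 3 mice against 3 allow (p = 0.15 with Benjamini-Hochberg adjustment of the exact p over the 3 ratios examined). Per kilobase of merged exon, Fabp4 made up 97.4% ± 0.332 (SD, n = 3) of the 3 binding proteins in control libraries and 98.0% ± 0.0924 in aPU.1KO libraries.

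Of the transport proteins, Slc27a1 (ENSMUSG00000031808; chromosome 8, 71568882 to 71587302, plus strand), which encodes FATP1, the insulin-responsive transporter of fat and muscle, had the smallest p-value of the 10 genes. It was counted at 317, 301 and 327 CPM in the control mice and at 445, 499 and 401 CPM in the aPU.1KO mice. The lowest aPU.1KO mouse, number 3, lay well above the highest control, and the 3 controls lay close together. The fold change was 1.42 (95% interval 1.20 to 1.69), or 0.51 on the log2 scale (standard error 0.10), at an adjusted p of 0.0764 by edgeR. DESeq2 gave an adjusted p of 0.000561. Its log2 fold change stayed between 0.42 and 0.59 with each mouse left out, where the edgeR adjusted p ran from 0.0717 to 0.313. A stretch of 167 bases of its transcripts is 95.2% identical to one of Slc3a2, a gene with 23774 counts against 66377 for Slc27a1.

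Slc27a4 (ENSMUSG00000059316; chromosome 2, 29802634 to 29817522, plus strand), which encodes FATP4, a broadly expressed transport protein, was at 37.3, 37.7 and 39.0 CPM in controls and at 41.1, 47.9 and 32.0 CPM in aPU.1KO mice. The aPU.1KO mice lay on both sides of the controls. Its log2 fold change was 0.09 (95% interval -0.26 to 0.43, edgeR adjusted p = 0.742) and became -0.06 without aPU.1KO mouse 2.

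Counts of Slc27a1 per count of Slc27a4 were 8.49, 7.98 and 8.37 in the control libraries and 10.8, 10.4 and 12.5 in the aPU.1KO libraries. The groups did not overlap in this ratio either. The log2 ratio of Slc27a4 to Slc27a1 averaged -3.05 ± 0.047 (SD, n = 3) in the controls and -3.49 ± 0.14 in the aPU.1KO mice, a difference of -0.44 (exact two-sided permutation p = 0.1, the smallest possible, and 0.15 adjusted over the 3 ratios). Per kilobase of merged exon Slc27a1 was 86.2% ± 0.385 of the pair in the controls and 89.4% ± 0.905 in the aPU.1KO mice, a description of the same counts.

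**Figure D3:**
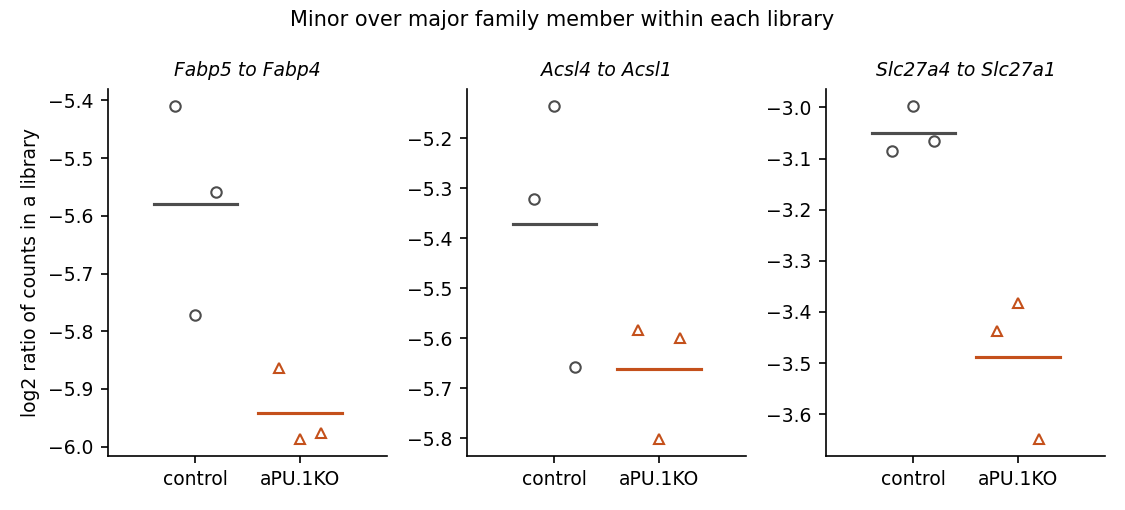
Log2 ratio of the counts of a minor to a major family member within each library, with circles for control, triangles for aPU.1KO and a line at each group's mean; each panel has its own axis. The aPU.1KO libraries lie below all controls for Fabp5 to Fabp4 (difference -0.36) and Slc27a4 to Slc27a1 (-0.44) and overlap the controls for Acsl4 to Acsl1 (-0.29).

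Of the synthetases, Acsl4 (ENSMUSG00000031278; chromosome X, 142317993 to 142390535, minus strand), which prefers arachidonic acid and other polyunsaturated fatty acids, was the one whose groups did not overlap. Its counts were 51.4, 51.2 and 46.4 CPM in the control mice and 42.8, 43.4 and 41.3 CPM in the aPU.1KO mice. The aPU.1KO mice lay within a narrow range just under control mouse 3, the lowest control. Its log2 fold change by edgeR was -0.23, its standard error 0.074 and its adjusted p 0.127 (unadjusted 0.0199), and DESeq2 gave an adjusted p of 0.0958. It lay between -0.28 and -0.20 with each mouse left out.

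Acsl5 (ENSMUSG00000024981; chromosome 19, 55251938 to 55297720, plus strand), a synthetase of the endoplasmic reticulum and mitochondria, was at 99.9, 83.5 and 101 CPM in the control mice and at 78.6, 55.0 and 85.6 CPM in the aPU.1KO mice. Control mouse 2 lay within the range of the aPU.1KO mice, of which mouse 2 was the lowest. For Acsl5 the log2 fold change was -0.38 (95% interval -0.79 to 0.031, edgeR adjusted p = 0.223), and it was -0.21 when aPU.1KO mouse 2 was left out. Its exons overlap those of Zdhhc6 on the other strand over 404 bp, and Zdhhc6 held 6446 counts against 16284 for Acsl5.

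Acsl3 (ENSMUSG00000032883; chromosome 1, 78657825 to 78707743, plus strand), which is found on lipid droplets and the endoplasmic reticulum, was at 16.3, 20.4 and 13.3 CPM in the control mice and at 14.6, 22.9 and 23.0 CPM in the aPU.1KO mice. The groups overlapped across most of their range, with a log2 fold change of 0.27 (95% interval -0.26 to 0.81, edgeR adjusted p = 0.478). Single mice moved it from 0.13, when control mouse 3 was left out, to 0.45, when aPU.1KO mouse 1 was. Exons of Acsl3 overlap those of Utp14b on the same strand over 244 bp, so the split of their reads is uncertain.

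Acsl1 (ENSMUSG00000018796; chromosome 8, 46471037 to 46536051, plus strand), the main long chain synthetase of adipocytes, was at 2057, 1800 and 2339 CPM in the control mice and at 2052, 2422 and 2002 CPM in the aPU.1KO mice. The groups overlapped in part, with aPU.1KO mouse 2 above all controls and control mouse 2 below all aPU.1KO mice. The 95% interval of its log2 fold change of 0.06 ran from -0.29 to 0.41 (edgeR adjusted p = 0.814). There were 40.0, 35.1 and 50.5 counts of Acsl1 per count of Acsl4 in the control libraries and 48.0, 55.8 and 48.5 in the aPU.1KO libraries, so this ratio overlapped between the groups. The log2 ratio of Acsl4 to Acsl1 differed by -0.29 (exact two-sided permutation p = 0.3 before and after adjustment over the 3 ratios). Per kilobase of merged exon, Acsl1 was 85.7% ± 1.42 (SD, n = 3) of the 4 synthetases in the controls and 88.1% ± 2.11 in the aPU.1KO mice, and Acsl5 was 8.51% ± 0.398 and 6.53% ± 1.86 (3.96% and 3.00% with the longest protein-coding transcripts).

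Dbi (ENSMUSG00000026385; chromosome 1, 120113280 to 120121078, minus strand), the acyl-CoA binding protein, was at 1055, 1086 and 1129 CPM in the control mice and at 1401, 1409 and 1230 CPM in the aPU.1KO mice. All aPU.1KO mice lay above all controls, with mouse 3 nearest to them. In edgeR Dbi differed by 0.31 on the log2 scale (standard error 0.10; adjusted p = 0.135, unadjusted 0.0232), and DESeq2 gave an adjusted p of 0.0278. It lay between 0.27 and 0.37 with each mouse left out.

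**Figure D4:**
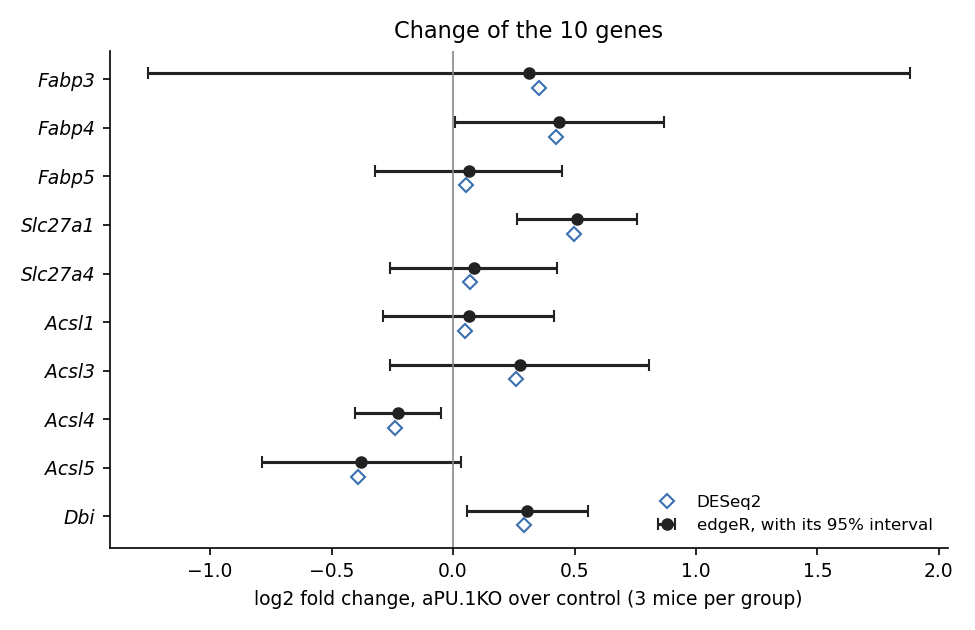
Log2 fold change of the 10 genes, aPU.1KO over control, from edgeR (filled circles, with the 95% interval as bars) and DESeq2 (open diamonds), 3 mice per group. The intervals of Fabp4, Slc27a1 and Dbi lie above 0 and that of Acsl4 lies below 0, and that of Fabp3 is the widest, from -1.26 to 1.88; the intervals are not adjusted for the number of genes.

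In 3 of these 4 genes and in the adipocyte markers the aPU.1KO libraries were higher, so the members were also expressed as a percentage of the summed adipocyte markers of the same library, a scaling chosen after the data had been seen. The log2 difference of that sum was 0.30. Its 8 genes differed widely, with edgeR log2 fold changes from -0.77 to 1.71, of which 7 were positive and 1 was negative. On this scale Slc27a1 still did not overlap, at 2.02, 1.70 and 1.99% in the controls and 2.21, 2.20 and 2.14% in the aPU.1KO mice. Dbi was at 6.58% ± 0.375 (SD, n = 3) and 6.57% ± 0.373 with overlap, and Fabp4 at 61.1% ± 8.84 and 66.7% ± 4.44 with overlap. Acsl4, whose CPM lay below all controls while the sum lay above them, was necessarily lower without overlap, at 0.300% ± 0.025 and 0.208% ± 0.015. Acsl5 and Slc27a4, whose CPM overlapped, did not overlap on this scale: Acsl5 was at 0.575% ± 0.089 and 0.363% ± 0.11, and Slc27a4 at 0.229% ± 0.014 and 0.195% ± 0.021, both lower in the aPU.1KO mice. The direction of Slc27a4, Fabp5, Acsl1, Acsl3 and Dbi thus depends on this scaling, and that of Fabp3, Fabp4 and Slc27a1 does not. For Acsl4 and Acsl5, whose mean CPM was lower, a lower value over the higher sum was fixed in advance, so their direction is no test.

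Compared per kilobase of merged exon, the level of the 10 genes in control adipocytes fell in the order Fabp4 (2249 ± 259 CPM per kb, SD, n = 3), Dbi (766 ± 26.2), Acsl1 (197 ± 25.7), Fabp5 (59.7 ± 11.3), Slc27a1 (53.9 ± 2.24), Acsl5 (19.5 ± 2.03), Acsl4 (9.19 ± 0.532), Slc27a4 (8.62 ± 0.202), Acsl3 (3.83 ± 0.820) and Fabp3 (0.725 ± 0.438). Fabp5 and Slc27a1, and Acsl4 and Slc27a4, are neighbours in this order whose control libraries overlap. Fabp4 ranked 15 and Dbi 41 of 13921 genes with a length, and Fabp3 ranked 11555. In the aPU.1KO mice Slc27a1 (76.8 ± 8.45 CPM per kb) stood above Fabp5 (62.5 ± 7.42), and Slc27a4 (9.14 ± 1.81) above Acsl4 (7.87 ± 0.203), in both pairs with overlap between the aPU.1KO libraries, and the order of the others was as in the controls. The place of Slc27a1 and Fabp5 depended on the length used: with the longest transcripts Slc27a1 stood above Fabp5 already in the controls (98.1 and 65.8), and with the longest protein-coding transcripts Fabp5 stood above Slc27a1 in the controls (216 and 113) and in the aPU.1KO mice (226 and 160). The merged exons of Fabp4, Fabp5 and Dbi are much longer than their longest protein-coding transcripts (4489 against 896, 3567 against 987 and 1422 against 569 bases), and with the latter lengths Fabp4 ranked 1 of 13572 genes and Dbi 21.

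The promoter windows of 3 members are shown. Of these, 2 hold GGAAGT, a form of the ETS motif bound by PU.1 and its many relatives. The third belongs to Acsl4, which was lower without overlap. The RefSeq promoter table (GRCm38.p6) had entries for 8 of the 10 genes, with 12 start sites in all. Fabp4 and Fabp5 had none. The 250 bases before each start were searched on both strands for GGAAGT (called ETS core here), CACGTG (E-box) and AGGTCA (nuclear receptor half-site). These are found in 19.7%, 6.0% and 14.0% of all 32851 windows of that length. GGAAGT was in 2 of the 12 windows, the E-box in 1 and the half-site in 0. Shorter matches to the ETS motif, such as the GGAA in the Acsl4 window, were not searched for. Capitals mark a match, and each window is written 5′ to 3′ on the strand of its gene and lies outside annotated exons.
Slc27a1, chr8:71570344-71570593, plus strand, with CACGTG 202 and GGAAGT 136 bases before the start: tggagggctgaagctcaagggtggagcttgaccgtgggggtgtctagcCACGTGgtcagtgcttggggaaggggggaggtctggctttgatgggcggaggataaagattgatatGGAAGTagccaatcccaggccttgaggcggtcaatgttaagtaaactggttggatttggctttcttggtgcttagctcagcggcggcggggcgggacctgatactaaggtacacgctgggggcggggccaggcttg
Acsl5, chr19:55253119-55253368, plus strand, with the ETS core on the opposite strand (read here as ACTTCC) 233 bases before the start: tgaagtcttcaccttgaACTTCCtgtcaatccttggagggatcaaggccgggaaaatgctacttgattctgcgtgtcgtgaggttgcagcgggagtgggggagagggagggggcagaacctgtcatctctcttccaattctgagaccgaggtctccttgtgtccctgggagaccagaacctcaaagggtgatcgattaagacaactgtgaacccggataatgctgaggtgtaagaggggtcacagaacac
Acsl4, chrX:142390536-142390785, minus strand, with none of these motifs: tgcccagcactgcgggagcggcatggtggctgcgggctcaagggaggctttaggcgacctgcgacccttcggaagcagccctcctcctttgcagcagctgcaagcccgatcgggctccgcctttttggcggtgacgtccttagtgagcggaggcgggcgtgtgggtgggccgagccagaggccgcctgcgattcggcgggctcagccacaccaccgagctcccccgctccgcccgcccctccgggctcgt
The windows of Slc27a1 and Acsl5 lie within the annotated span of their genes, before internal start sites. The Slc27a1 window precedes the last of 3 start sites in the table, and the other 2 windows of Slc27a1 held none of the motifs. A match of 6 letters is a description of the sequence and no measure of binding.

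Genes that work beside the members were followed in 5 lists with 104 genes, of which 78 passed the filter on low counts. edgeR called 1 of the 78 (1.28%) at an adjusted p under 0.05, against 0.237% of all genes tested. That gene, Fabp1, passed the filter only through the control libraries, so nothing is read from this share. At an unadjusted p under 0.05 there were 29 (37.2%), Fabp1 among them, against 25.7% of all genes tested. Among these 29 genes, 21 had higher counts in aPU.1KO adipocytes (26.9% of the 78, against 11.9% of all genes tested) and 8 had lower ones (10.3% against 13.7%). DESeq2 called 11 of the 78 (14.1%, against 11.5% of the genes it tested). Fabp1 is also among the 8 lower genes and among these 11. Of all genes it tested, DESeq2 called 3.69% higher and 7.78% lower.

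The first list held relatives of the members in the same families, 12 of 26 tested, with a median log2 fold change of 0.12. Its called gene was Fabp1, the liver form of the binding protein and also one of the hepatocyte markers whose sum was lower in the aPU.1KO mice without overlap: 120, 36 and 39 counts (1.65, 1.58 and 1.55 CPM) in the control libraries against 1, 0 and 0 in the aPU.1KO libraries. Against a floor of 3 counts per library its mean was at least 10.4-fold lower in the aPU.1KO mice. Fabp1 passed the filter on low counts only through the control libraries, so its call is given as a count and nothing is read from it. It was also lost when any mouse other than control mouse 2 was left out, with edgeR adjusted p-values from 0.0611 to 0.221. In the same way Slc27a2 was counted 28, 9 and 11 times in the controls and 0 times in the aPU.1KO libraries, and Slc27a5, a bile acid and fatty acid synthetase of liver, 24, 14 and 7 times and then 0, 0 and 1 times, too few for the filter. These 2 genes were named after their values were seen. The 4 most abundant relatives were Acbd4, Acbd5, Eci2 and Acbd3, all with an acyl-CoA binding domain, with log2 fold changes of 0.04, 0.21, 0.25 and -0.086. Acbd5, which tethers peroxisomes to the endoplasmic reticulum, had 111, 115 and 104 CPM in the controls and 128, 138 and 116 CPM in the aPU.1KO mice, at an edgeR adjusted p of 0.207. The groups did not overlap in Acbd5 and Eci2, which were higher in the aPU.1KO mice, nor in Acbd3, which was lower. Eci2 had an edgeR adjusted p of 0.135 and a log2 fold change of 0.17 when aPU.1KO mouse 2 was left out, and Acbd3 had an edgeR adjusted p of 0.448.

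Acyl-CoA thioesterases split acyl-CoA back into the free fatty acid, and their list also held the palmitoyl-protein thioesterases Ppt1 and Ppt2. Of 18 listed, 13 were tested. At an unadjusted p under 0.05, 3 were higher and 1 was lower (against 11.9% and 13.7% of all genes tested). None passed the adjusted threshold of edgeR and DESeq2 called 1 (Acot4, named after its value was seen). The most abundant were Ppt1, Acot9, Ppt2 and Acot7, with log2 fold changes of -0.055, 0.036, -0.046 and -0.13 and edgeR adjusted p-values from 0.364 to 0.850. Acot4, a peroxisomal enzyme, was at 11.2, 15.6 and 9.64 CPM in the controls and at 15.1, 33.1 and 21.3 CPM in the aPU.1KO mice, overlapping between control mouse 2 and aPU.1KO mouse 1.

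Synthetases of short and medium chain acids had the highest median of the 5 lists, a log2 fold change of 0.45 over 9 tested genes of 12. At an unadjusted p under 0.05, 6 were higher and none was lower (against 11.9% and 13.7% of all genes tested). None passed the adjusted threshold of edgeR, and DESeq2 called Aacs, the acetoacetyl-CoA synthetase. Aacs was at 99.6, 124 and 89.8 CPM in the controls and at 175, 280 and 134 CPM in the aPU.1KO mice without overlap. The log2 fold change of Aacs was 0.91 with adjusted p-values of 0.109 by edgeR and 0.0160 by DESeq2, and its standard error was 0.27. When aPU.1KO mouse 2, the highest, was left out it was 0.56. Acss2, which makes acetyl-CoA from acetate in the cytosol, was at 160, 190 and 126 CPM and at 317, 324 and 165 CPM, where aPU.1KO mouse 3 fell among the controls. Its log2 fold change was 0.76 and that of Acss3, a mitochondrial enzyme, was 0.45, with edgeR adjusted p-values of 0.152 for both. Acsf2 had -0.29 (edgeR adjusted p = 0.294), or -0.15 when control mouse 3 was left out and -0.43 when control mouse 2 was.

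Partners of fatty acid uptake and release had a median log2 fold change of 0.11 over 15 tested genes of 16. At an unadjusted p under 0.05, 4 were higher and none was lower (against 11.9% and 13.7% of all genes tested). Lpl, the lipase that frees fatty acids from lipoproteins, was at 16235, 18834 and 14955 CPM in the controls and at 19936, 22517 and 20360 CPM in the aPU.1KO mice without overlap (log2 fold change 0.33, edgeR adjusted p = 0.334). Cd36, a fatty acid receptor of the cell surface, was at 5389, 5481 and 5122 CPM and at 6136, 5491 and 5498 CPM, with a log2 fold change of 0.099 (edgeR adjusted p = 0.680) that became 0.034 when aPU.1KO mouse 1 was left out. Cav1 and Plin1 had 0.16 and 0.28, with edgeR adjusted p-values of 0.510 and 0.195, and Cav1 moved to 0.081 when control mouse 3 was left out and to 0.26 when control mouse 2 was. DESeq2 called Plin1 together with Ffar4, Pnpla2 and Lipe, a receptor for fatty acids and a pair of lipases, all 4 higher. Plin1 and Lipe also belong to the adipocyte markers.

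Enzymes that use acyl-CoA had a median log2 fold change of 0.069 over 29 tested genes of 32. At an unadjusted p under 0.05, 7 of them were higher and 5 lower (against 11.9% and 13.7% of all genes tested), and none passed the adjusted threshold of edgeR. Scd1, the desaturase and most abundant of them, ranged from 15595 to 45928 CPM in the controls and from 39256 to 46907 CPM in the aPU.1KO mice, so that control mouse 2 lay among the aPU.1KO mice (log2 fold change 0.54, edgeR adjusted p = 0.442). Its log2 fold change was 1.02 when control mouse 2 was left out and 0.23 when control mouse 3 was. Dgat2, Scd2 and Agpat2 had log2 fold changes of 0.059, -0.11 and 0.43, with edgeR adjusted p-values of 0.802, 0.816 and 0.239, and Agpat2 had 0.16 when aPU.1KO mouse 2 was left out. DESeq2 called 1 higher, Gpat4, which starts glycerolipid synthesis, and 3 lower, Cpt1a, Soat1 and Lpcat2. Of these, Cpt1a, which passes acyl-CoA on to mitochondrial oxidation, was at 140, 124 and 142 CPM in the controls and at 81.9, 85.3 and 116 CPM in the aPU.1KO mice (log2 fold change -0.52, edgeR adjusted p = 0.0990). These 4 genes were named after their values were seen.

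**Figure D5:**
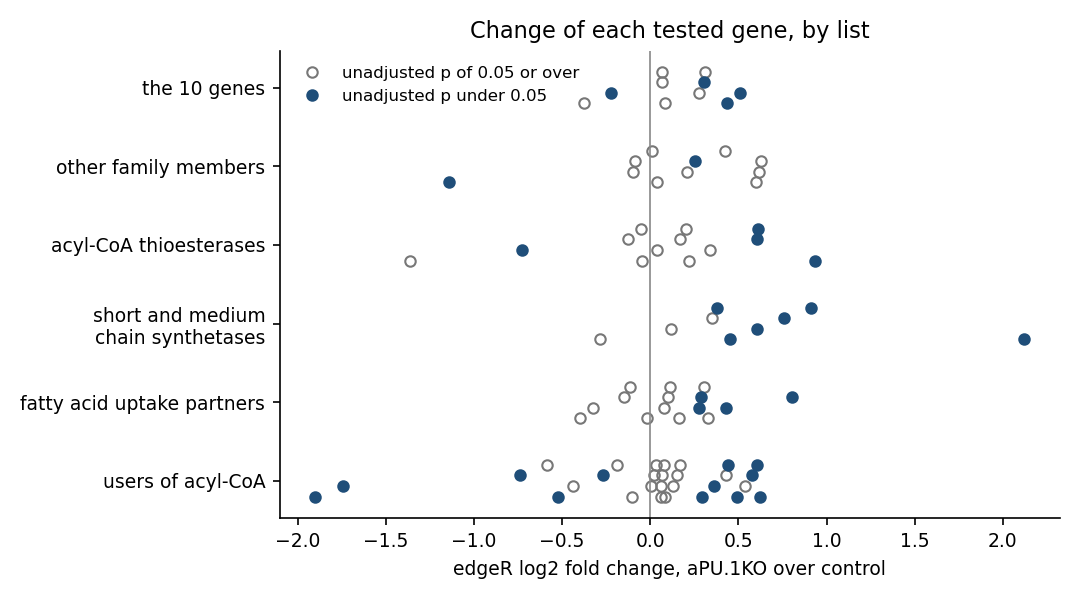
Log2 fold change (edgeR, aPU.1KO over control) of each tested gene of the 10 members and the 5 lists, filled where the unadjusted p was under 0.05; Fabp1 is left out because its aPU.1KO libraries are at the floor, and vertical spread within a row has no meaning. Short and medium chain synthetases, singled out after the values were seen, have the highest median (0.45). Of their 9 genes 6 are filled, against 25.7% of all genes tested at that threshold.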

How the data were processed

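RNA of the adipocyte fraction of 3 control and 3 aPU.1KO mice was measured, 1 library each. The authors quantified reads with Salmon (option validateMappings) and deposited estimated counts summed to genes, unnormalized. They were all whole numbers and entered every test unrounded. The submitters' processing notes name GRCm38 and FastQC, and the annotation release is not given in the sources used here. Of 35122 genes, 35102 were matched to a GENCODE symbol, and the rest held 0.00188% of counts. The study's text gives an age of more than 1 year. Gene-level splitting of reads between overlapping or near-identical genes cannot be undone from such counts. Libraries of a group differed by more than sampling noise (chi-square over its degrees of freedom at least 22.1).

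The comparison used edgeR 4.0.16 under R 4.3.3 (filterByExpr, TMM, glmQLFit, glmQLFTest, Benjamini-Hochberg adjustment over all genes). The common biological coefficient of variation was 0.194. Ratios within a library were tested with exact permutation tests in scipy 1.17.1. Alternatives were RLE and upper quartile scaling, 2 other filters, DESeq2 1.42.0, limma-voom (limma 3.58.1), robust dispersion and leaving out each mouse. Adipocyte marker scaling, the lengths of protein-coding transcripts and the count of members at an unadjusted p under 0.05 across alternatives were added after the data were seen. The code was tested on simulated data. Similar transcripts were found with BLAST 2.17.0 at 95% identity or more, and plots were made in Python 3.11.15 (matplotlib 3.10.9).

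The members and lists were chosen with earlier results of these data known. Named were all members, Spi1, the 4 genes of each list with the highest mean CPM, called genes, and the leading markers. The floor was 3 counts of a gene per library.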

Additional observations from a re-analysis of the deposited data

How the results depend on the processing

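Over the 13 alternatives fixed with the design, 0 of the 10 members passed an adjusted p of 0.05 with edgeR or limma-voom, with each mouse left out included (0 to 0), and 3 did with DESeq2. At an unadjusted p under 0.05 the 4 members became between 1 and 4 with each mouse left out, 1 once control mouse 1 was left out and 2 for aPU.1KO mouse 1. The 1 called companion gene, Fabp1, was removed before testing with at least 10 counts in every library, which left 0, and the count was 14 with DESeq2, which also tested genes below the edgeR filter. With each mouse left out it ranged from 0 to 8, with 8 of 79 tested (10.1%, beside 1193 or 8.34% of all genes) once control mouse 2 was left out and 0 for any other mouse. With each mouse left out the difference in the log2 ratio stayed between -0.46 and -0.28 for Fabp5 to Fabp4, between -0.43 and -0.17 for Acsl4 to Acsl1 and between -0.49 and -0.36 for Slc27a4 to Slc27a1. Single mice turned the direction of 4 members. Fabp3 ranged from -0.37 (aPU.1KO mouse 3 left out) to 0.84 on the log2 scale, with -0.043 when control mouse 2 was left out. Fabp5 ranged from -0.094 (control mouse 2) to 0.16, with -0.030 for aPU.1KO mouse 1. Slc27a4 ranged from -0.061 (aPU.1KO mouse 2) to 0.23, and Acsl1 from -0.037 (control mouse 2) to 0.16, with -0.031 for aPU.1KO mouse 2. Of the companion genes named by abundance or an edgeR call, the sign also turned for Acbd4 (-0.028 to 0.079 with each mouse left out), Ppt1 (-0.13 to 0.0014), Acot9 (-0.046 to 0.094), Ppt2 (-0.20 to 0.032), Dgat2 (-0.0030 to 0.10) and Scd2 (-0.31 to 0.096). The other companion genes named, such as Acot4 and Cpt1a, were not followed in this way. Over the summed adipocyte markers Dbi had -0.00057 (exact permutation p = 1 for 3 against 3 mice). The share of Slc27a1 in its pair in the controls was 91.3% with the longest transcript and 92.3% with the longest protein-coding one, and that of Acsl1 was 90.9% and 93.6%. The cause of these shifts with single mice was not tested. No paired analysis was possible because the labels share no replicate number between the groups and do not say which mice are littermates of each other. Fabp3 was not tested with at least 10 counts in every library. Depth limits only Fabp3 among the members, since every other member held at least 288 counts in each library, and intervals cover the spread between these mice.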
